A study of Mus musculus with 9 samples.

Results

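DNA replication and S phase genes were described in mouse myoblasts, the proliferating cells that go on to form muscle fibres. The set was a list of 43 symbols. Each symbol was represented by the probe set that carried it as its only symbol and had the highest mean over the 9 arrays, and 42 of the 43 had such a probe set, among 19661 genes tested. Pcna had none and is not analysed here. The cells were of Balb/c background and skeletal muscle origin, and all groups were cultured in Ham's F10 with 20% serum and bFGF, a growth factor, at 4 ng/ml. There were 3 arrays from cells with an empty vector (control, named CTAP in the labels), 3 from cells overexpressing Pax3 and 3 from cells overexpressing Pax7, both DNA-binding factors that specify muscle precursors. The promoter of the constructs, and whether each group was 1 clone or a pool of cells, are not stated in the labels. Nothing in the labels says that the replicates were separate cultures, so p-values measure the spread between these samples only, which may be technical.

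Before a cell copies its DNA, the origin recognition complex, Cdc6 and Cdt1 load the ring of Mcm2 to Mcm7 onto each replication origin, a step called licensing. At the start of S phase Cdc45 and the GINS complex join the ring to form the active helicase, and polymerases, the sliding clamp with its loader, and the enzymes that supply deoxynucleotides carry out the synthesis. E2F transcription factors and cyclin E drive the entry into S phase and the expression of many of these genes. Myoblasts leave the cell cycle when they differentiate, and genes of this set are then switched off.

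The labelled factors were high in their own arrays. Pax3 rose from a mean log2 intensity of 5.83 in control to 11.05 in Pax3 arrays, and Pax7 from 10.51 in control to 12.28 in Pax7 arrays. Pax7 was lower in Pax3 arrays than in control, at 8.18, and Pax3 stood at 6.82 in Pax7 arrays, so the Pax3 arrays differed from both other groups in the level of both factors. The control arrays carried Y-linked transcripts and little Xist, and the Pax3 and Pax7 arrays carried Xist and little Y-linked signal, so both comparisons with control also compared cells that differed in sex-linked transcripts. Eif2s3y, a Y-linked gene, had means of 8.78 (control), 3.12 (Pax3) and 3.08 (Pax7). Genes along chromosome 16 also shifted in the same 2 comparisons, down over most of its length and up towards its end. Whether the control cells and the cells with Pax3 or Pax7 came from the same isolate is not stated in the labels, so in every fold change against control the overexpressed factor and a difference between source cells cannot be told apart. The 6 myoblast markers were Myod1, Myf5, Cdh15, Des, Itga7 and Pax7. Their array mean was 11.05 to 11.08 (control), 10.68 to 10.71 (Pax3) and 11.17 to 11.18 (Pax7). There were 1 rise and 4 falls for Pax3, and 2 rises, Pax7 itself among them, and 4 falls for Pax7. With Pax7 means of 10.51, 8.18 and 12.28, the order of these array means follows the level of Pax7 at least in part. An array mean without Pax7 was not computed. The median log2 fold change of the 6 was -0.49 with Pax3 and -0.54 with Pax7. All 12 markers of differentiated muscle fell in both comparisons with control, and their array mean was 10.44 to 10.67 (control), 8.60 to 8.62 (Pax3) and 7.64 to 7.82 (Pax7). Of 5 epithelial markers 4 rose in both comparisons with control, and their array mean was 5.92 to 6.05 (control), 6.22 to 6.28 (Pax3) and 6.83 (Pax7). Of 5 macrophage and leukocyte markers 2 rose in each comparison with control. The largest rise was 2.08 log2 units with Pax3 and 2.04 with Pax7, and 2 markers changed by at least 1 log2 unit in each. Ptprc, Adgre1 and Csf1r lay between 3.73 and 5.07 in all arrays, under the median gene mean of 6.88. The array mean of the 5 was 5.41 to 5.53 (control), 6.16 to 6.21 (Pax3) and 6.21 to 6.23 (Pax7). Fibroblast markers gave 1 rise and 1 fall of 6 in each comparison with control, endothelial markers 1 and 2 rises of 5, neuronal markers 1 and 2 rises with 1 fall each of 5, and adipocyte markers 1 and 3 rises of 4, for Pax3 and Pax7 in that order. Over all genes 19.7% fell and 19.8% rose with Pax3, and 21.5% and 21.6% with Pax7. Against these shares the fibroblast calls (16.7% each way) were near background, and all the marker lists are short. The array means of these 4 lists lay between 4.98 and 6.49 in every array. These means hide larger changes of single markers. The neuronal marker Stmn2 changed by 2.85 log2 units with Pax3 and 3.04 with Pax7. Tubb3, also neuronal, had means of 6.76 (control), 5.75 (Pax3) and 6.03 (Pax7). The adipocyte marker Pparg changed by 1.12 and 1.33, and the endothelial marker Tek by 0.38 and 0.74. Among fibroblast markers Pdgfra changed by 0.42 and 0.58, and Col3a1 by -0.26 and -0.88. What the markers' shifts contributed to the replication genes was not tested. In these bulk samples fewer cells in S phase and less RNA per cell cannot be told apart.

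Most replication genes that changed were lower in cells with either factor than in control cells. In Pax3 arrays 23 of the 42 members fell (54.8%) and 5 rose (limma with Benjamini-Hochberg adjustment over all genes, adjusted p under 0.05), while 14 did not pass. Over all 19661 genes 19.7% fell and 19.8% rose in that comparison. In Pax7 arrays 24 of 42 fell (57.1%), 3 rose and 15 did not pass, against 21.5% falling and 21.6% rising over all genes. Brighter genes were called more often. With the lowest 50% of genes left out, 23 of 41 members fell with Pax3 and 24 with Pax7. The background was then 3307 of 9831 genes falling with Pax3 and 3565 with Pax7, closer to the members' shares. The median log2 fold change of the members was -0.20 in both comparisons, against 0.016 and 0.027 over all genes. Changes were mostly small: 31 of 42 members changed by less than 0.5 log2 units in both comparisons. At least 0.5 was reached by 8 of 42 members with Pax3 and 11 with Pax7, against 2738 and 3225 of all 19661 genes. The SD of 3 arrays had a median of 0.060 over members and groups. The arrays of the 2 groups did not overlap for 28 members between Pax3 and control (45.1% over all genes) and for 30 between Pax7 and control (55.5%). Both comparisons used the same 3 control arrays, so they are not independent of each other. The members on chromosome 16, Mcm4, Cdc45, Rfc4 and Chaf1b, lie among genes that shifted alike, and without them 20 of 38 members fell with Pax3 and 21 with Pax7. When a change of more than 1.2-fold was required (limma's treat), 10 members passed for Pax3 (9 lower, 1 higher) and 12 for Pax7 (11 lower, 1 higher). Over all 19661 genes that test called 1597 lower and 1667 higher for Pax3, and 1900 lower and 1919 higher for Pax7. The members on chromosome 16 were included in these counts.

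**Figure D1:**
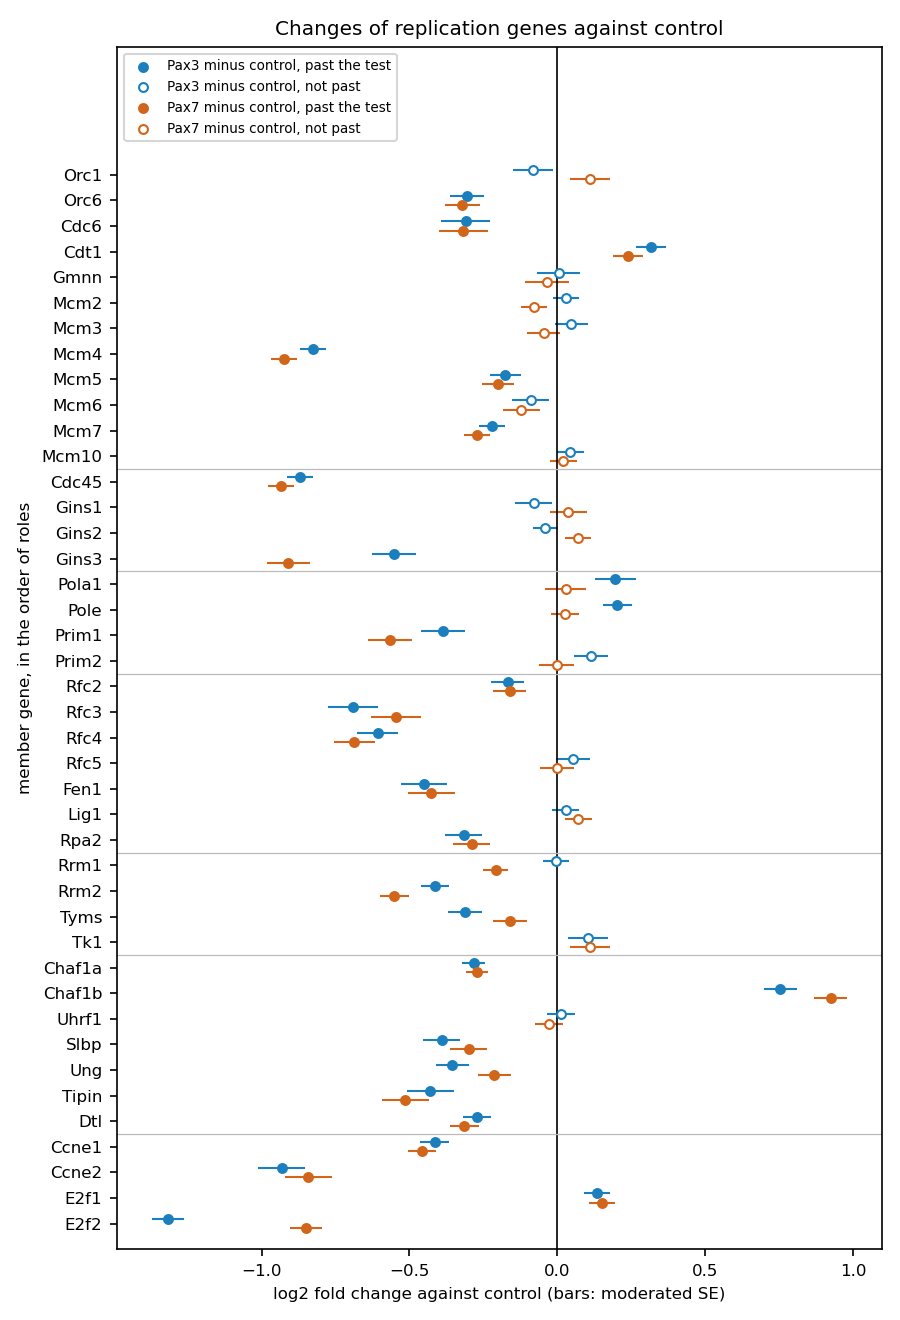
Log2 fold change of each of the 42 members against control, in Pax3 (blue) and Pax7 arrays (orange), with moderated standard errors as bars and members in the order of their roles. Filled points passed the limma test, and most of them lie to the left of 0, with Chaf1b and Cdt1 furthest to the right.

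Many replication genes are known to carry sites for E2F factors near their start. Promoter sequences (250 bases before to 50 after the start, from RefSeq, build GRCm38.p6) were in hand for 33 of the 42 members, with 39 start sites in all. The E2F motif was searched on both strands as TTTCCCGC, TTTCGCGC, TTTGCCGC or TTTGGCGC. It occurred in 14 of the members' 39 promoters (35.9%) and in 744 of all 32851 promoters (2.26%). The CCAAT box, searched as CCAAT on both strands, occurred in 24 of 39 (61.5%) against 37.4% of all. The palindromic site of paired-class homeodomains, searched as TAAT and ATTA with 2 or 3 bases between them, occurred in 0 of 39 members' promoters and 0.858% of all. No match says only that these letters are not in this window.

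Genes with and without the E2F letters were among those that fell. Of the 14 genes with a match, 7 fell, 2 rose and 5 did not pass in Pax3 arrays, and 7 fell, 1 rose and 6 did not pass in Pax7 arrays. Of 19 genes with a promoter sequence but no match, 12 fell and 2 rose in Pax3 arrays and 13 fell and 2 rose in Pax7 arrays. Over all genes 19.7% fell and 19.8% rose with Pax3, and 21.5% and 21.6% with Pax7. The 120 bases before the start are shown for 5 genes whose match lies within them, with the matches in capitals, to set genes that fell beside genes that did not pass. Gins3 (chr8:95633439-95633558 on the plus strand), Rfc3 (chr5:151651209-151651328 on the minus strand) and Dtl (chr1:191575545-191575664 on the minus strand) fell in both comparisons. Orc1 (chr4:108579334-108579453 on the plus strand) and Mcm6 (chr1:128359706-128359825 on the minus strand) did not pass in either.
Gins3: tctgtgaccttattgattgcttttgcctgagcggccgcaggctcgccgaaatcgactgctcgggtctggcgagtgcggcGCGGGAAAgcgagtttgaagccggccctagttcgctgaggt
Rfc3: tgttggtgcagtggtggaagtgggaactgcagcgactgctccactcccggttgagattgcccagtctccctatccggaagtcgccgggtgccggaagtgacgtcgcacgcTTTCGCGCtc
Dtl: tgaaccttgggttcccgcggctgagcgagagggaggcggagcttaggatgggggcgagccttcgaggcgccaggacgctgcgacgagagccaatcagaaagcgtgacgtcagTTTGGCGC
Orc1: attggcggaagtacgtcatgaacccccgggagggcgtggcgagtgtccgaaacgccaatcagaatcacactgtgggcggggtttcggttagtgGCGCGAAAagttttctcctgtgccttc
Mcm6: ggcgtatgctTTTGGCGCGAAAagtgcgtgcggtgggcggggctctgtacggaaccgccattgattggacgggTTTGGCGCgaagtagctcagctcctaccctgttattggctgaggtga
Mcm6 holds 3 matches, of which the first pair overlaps, and each of the others holds 1 in this window.

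The regulators that open S phase held the largest change of the set, and all 4 of them passed in both comparisons. In each comparison 3 fell (75%) and 1 rose (25%). Over all genes 19.7% fell and 19.8% rose with Pax3, and 21.5% and 21.6% with Pax7. E2f2, an activating E2F factor, read 7.75, 7.94 and 7.88 in control arrays (log2 intensity), 6.58, 6.57 and 6.47 in Pax3 arrays and 7.01, 6.99 and 7.02 in Pax7 arrays. The 3 groups did not overlap, and Pax3 arrays were lowest. E2f2 was 2.49-fold lower with Pax3 than in control (log2 fold change -1.32 ± 0.054, SE, n = 3 per group, limma adjusted p = 7.74e-09) and 1.80-fold lower in Pax7 arrays (-0.85 ± 0.054, limma adjusted p = 1.9e-07). Ccne2 read 9.33, 9.30 and 9.16 in control arrays, 8.46, 8.39 and 8.15 in Pax3 arrays and 8.49, 8.36 and 8.41 in Pax7 arrays. Ccne2 encodes cyclin E2, a partner of Cdk2, and its control arrays lay above all others, while Pax3 and Pax7 arrays overlapped. Its log2 fold change was -0.93 ± 0.080 in Pax3 and -0.84 ± 0.080 in Pax7 arrays. Ccne1 (cyclin E1) read 10.99, 10.90 and 10.90 in control arrays, 10.44, 10.59 and 10.51 in Pax3 arrays and 10.46, 10.47 and 10.48 in Pax7 arrays. Again only the control arrays stood apart, with changes of -0.41 ± 0.048 and -0.46 ± 0.048. E2f1, another activating E2F factor, rose by 0.13 in Pax3 and 0.15 in Pax7 arrays (limma adjusted p = 0.032 and 0.0159). Its rise with Pax3 was lost without control replicate 1, control replicate 2 or Pax3 replicate 1 (adjusted p 0.059 to 0.129), and its rise with Pax7 without control replicate 2 or Pax7 replicate 3 (0.0661 and 0.0703). The Pax3 call also failed with arrays centred on their median (0.0806) or with only the 6 arrays compared (0.062).

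**Figure D2:**
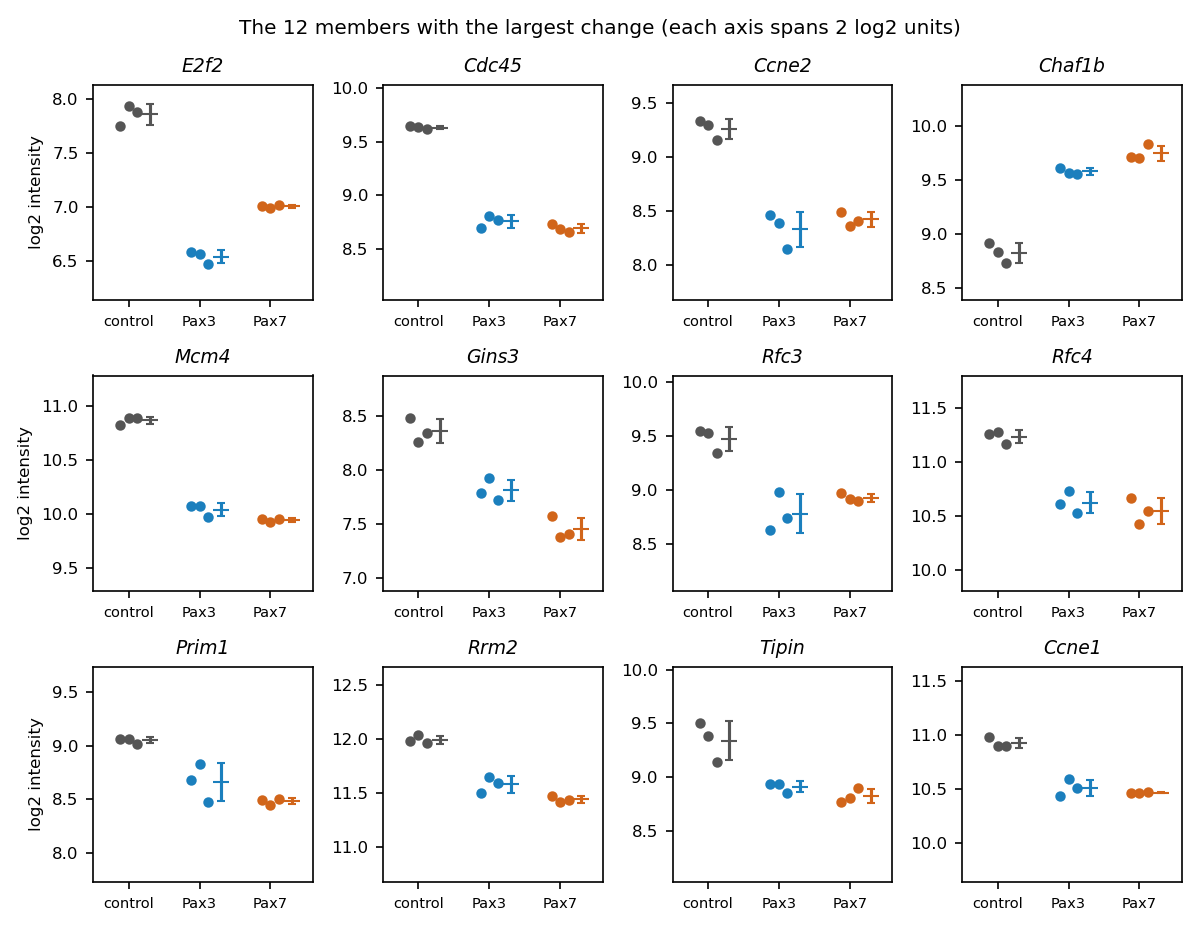
Log2 intensity of the 12 members with the largest change, 1 point per array, with the mean and SD of the 3 arrays beside each group (each axis spans 2 log2 units). Control points lie apart from Pax3 and Pax7 points in every panel, and Chaf1b is the panel in which control is lowest.

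Of 12 licensing genes 5 fell (41.7%) and 1 rose (8.33%) in each comparison with control, and 6 did not pass. Over all genes 19.7% fell and 19.8% rose with Pax3, and 21.5% and 21.6% with Pax7. With the lowest 50% of genes left out, 3307 of 9831 genes fell with Pax3 and 3565 with Pax7, closer to the share of the licensing genes. Mcm4, a subunit of the helicase ring whose gene lies on chromosome 16, changed most among the licensing genes. Mcm4 read 10.82, 10.89 and 10.89 in control arrays, 10.07, 10.07 and 9.97 in Pax3 arrays and 9.95, 9.92 and 9.95 in Pax7 arrays. Every control array lay above every other array, and the gene was 1.77-fold lower with Pax3 (-0.83 ± 0.044, limma adjusted p = 6.8e-08) and 1.90-fold lower with Pax7 (-0.92 ± 0.044, limma adjusted p = 1.86e-08). The other 5 subunits of the ring shifted less. Mcm7 changed by -0.22 and -0.27 and Mcm5 by -0.18 and -0.20 in Pax3 and Pax7 arrays, and these passed, the Mcm5 fall with Pax3 being lost without control replicate 3 or Pax3 replicate 3 (adjusted p 0.0652 and 0.0839). Mcm2 (0.03 and -0.08), Mcm3 (0.05 and -0.05) and Mcm6 (-0.09 and -0.12) did not pass, although Mcm6 passed for Pax3 without Pax3 replicate 2 (adjusted p = 0.041). The assembled ring holds its 6 subunits in equal numbers, and the differences between the changes of their transcripts were not tested.

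The loaders of the ring also moved in different directions. Orc6 read 9.67, 9.61 and 9.64 in control arrays, 9.35, 9.42 and 9.23 in Pax3 arrays and 9.38, 9.23 and 9.35 in Pax7 arrays. Orc6 is a subunit of the origin recognition complex, and its control arrays lay above the rest (changes of -0.31 ± 0.059 and -0.32 ± 0.059). Orc1, a subunit that binds ATP in the same complex, did not pass (-0.08 and 0.11). Cdc6 changed by -0.31 ± 0.083 and -0.32 ± 0.083, and without control replicate 1 its fall with Pax3 just missed the threshold (adjusted p = 0.0531). Cdt1, which works with Cdc6 in loading, rose by 0.32 ± 0.050 in Pax3 and 0.24 ± 0.050 in Pax7 arrays (limma adjusted p = 0.000393 and 0.00243). Geminin Gmnn, the inhibitor of Cdt1, changed by 0.0044 and -0.03 and did not pass, and neither did Mcm10, which acts as the helicase starts (0.04 and 0.02).

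Cdc45 and the GINS subunit Gins3 fell, while the other GINS subunits did not pass. Cdc45 read 9.64, 9.63 and 9.61 in control arrays, 8.70, 8.81 and 8.78 in Pax3 arrays and 8.74, 8.69 and 8.66 in Pax7 arrays. The arrays of each group lay close together, the control arrays were highest, and the changes were -0.87 (Pax3) and -0.93 (Pax7), each with a standard error of 0.044 (limma adjusted p = 4.26e-08 and 1.59e-08). Gins3 read 8.48, 8.26 and 8.35 in control arrays, 7.78, 7.92 and 7.73 in Pax3 arrays and 7.57, 7.38 and 7.41 in Pax7 arrays. Here the order was control, Pax3, Pax7 with no overlap, and the changes from control were -0.55 ± 0.074 and -0.91 ± 0.074 (limma adjusted p = 0.00011 and 1.61e-06). Gins1 (-0.08 and 0.04) and Gins2 (-0.04 and 0.07), its partners in the same complex, did not pass, and neither did the remaining subunit Gins4 of the further replication list (-0.08 and -0.07).

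Polymerase alpha with its primase starts each new strand, and polymerase epsilon extends the leading strand. Prim1 read 9.06, 9.06 and 9.02 in control arrays, 8.68, 8.83 and 8.48 in Pax3 arrays and 8.50, 8.45 and 8.50 in Pax7 arrays. Prim1, the catalytic subunit of primase, changed by -0.38 ± 0.074 and -0.56 ± 0.074 on the log2 scale, and Pax3 arrays spread more widely than the others. The other primase subunit, Prim2, did not pass (0.11 and -0.0022), except for Pax3 without Pax3 replicate 3 (adjusted p = 0.0481). The catalytic subunits Pole and Pola1 were higher in Pax3 arrays, by 0.20 ± 0.048 and 0.20 ± 0.069 (limma adjusted p = 0.00553 and 0.0437). In Pax7 arrays they stood at 0.03 and 0.03 against control and did not pass. The Pola1 call was lost when any array other than Pax3 replicate 3 was left out (adjusted p 0.0532 to 0.109), and likewise with arrays centred on their median (0.0899) and with only the 6 arrays compared (0.0841).

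Of 7 measured genes of the clamp loader and the lagging strand, 5 fell and 2 did not pass in each comparison. The share that fell was 71.4%, against 19.7% of all genes with Pax3 and 21.5% with Pax7. With the lowest 50% of genes left out, 3307 of 9831 genes fell with Pax3 and 3565 with Pax7. The clamp loader, a complex of Rfc subunits, was again uneven. Rfc3 read 9.55, 9.53 and 9.35 in control arrays, 8.63, 8.98 and 8.74 in Pax3 arrays and 8.97, 8.91 and 8.90 in Pax7 arrays. Rfc4 was 11.25, 11.28 and 11.16 in control arrays, 10.61, 10.73 and 10.53 in Pax3 arrays and 10.67, 10.42 and 10.54 in Pax7 arrays. Neither gene overlapped between control and the other groups. Rfc3 changed by -0.69 ± 0.085 and -0.55 ± 0.085, and Rfc4 by -0.61 ± 0.070 and -0.69 ± 0.070 (Pax3 and Pax7, limma adjusted p at most 0.000281). Rfc2 passed narrowly at -0.17 and -0.16 (limma adjusted p = 0.0334 and 0.0384). Its call with Pax3 was lost without control replicate 1 or 2, Pax3 replicate 1 or 3, or Pax7 replicate 2 (adjusted p 0.0503 to 0.131), and its call with Pax7 without control replicate 1 or 2 or any Pax7 array (0.0644 to 0.145). Fitting only the 6 arrays compared also ended the Pax3 call (0.0749). Rfc5 did not pass (0.05 and -0.00064).

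Fen1, the nuclease that trims the flaps of Okazaki fragments, was 8.34, 8.24 and 8.40 in the control arrays, 7.80, 8.05 and 7.77 in those with Pax3 and 7.99, 7.85 and 7.86 in those with Pax7. Control arrays were the highest, and the changes were -0.45 ± 0.078 and -0.43 ± 0.078. Lig1, the ligase that seals the trimmed fragments, did not pass (0.03 and 0.07). Rpa2, a subunit of the protein that coats single-stranded DNA, changed by -0.32 ± 0.063 and -0.29 ± 0.063.

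Ribonucleotide reductase makes deoxynucleotides from 2 kinds of subunit, and both transcripts fell with Pax7. Rrm2, the small subunit that limits the enzyme in the cell cycle, read 11.98, 12.03 and 11.97 in the control arrays, 11.50, 11.65 and 11.59 in those with Pax3 and 11.48, 11.41 and 11.44 in those with Pax7. It fell by 0.41 ± 0.048 and 0.55 ± 0.048 log2 units. The Pax7 arrays lay just below the Pax3 arrays without overlap, but this difference did not pass (limma adjusted p = 0.0824). The large subunit Rrm1 read 11.65, 11.64 and 11.58 in control, 11.64, 11.65 and 11.57 with Pax3 and 11.44, 11.41 and 11.39 with Pax7. Only its Pax7 arrays stood apart, at -0.21 ± 0.042 from control (limma adjusted p = 0.00196), whereas the Pax3 value was -0.0044. Thymidylate synthase Tyms changed by -0.31 ± 0.056 with Pax3 and -0.16 ± 0.056 with Pax7. The Pax7 call for Tyms (limma adjusted p = 0.0401) was lost without control replicate 2 or 3, Pax3 replicate 1 or any Pax7 array (adjusted p 0.0552 to 0.132), and also with the replicate number as a block (0.0513) or with arrays centred on their median (0.0557). Thymidine kinase Tk1, which salvages thymidine, did not pass (0.10 and 0.11).

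Of 7 genes that act on chromatin and repair at the fork, 5 fell (71.4%), 1 rose (14.3%) and 1 did not pass in each comparison. Over all genes 19.7% fell and 19.8% rose with Pax3, and 21.5% and 21.6% with Pax7. With the lowest 50% of genes left out, 3307 of 9831 genes fell with Pax3 and 3565 with Pax7. The higher gene of the 7 was Chaf1b, a subunit of the factor that places new histones behind the fork. It read 8.91, 8.83 and 8.73 in the control arrays, 9.61, 9.56 and 9.56 in those with Pax3 and 9.71, 9.70 and 9.83 in those with Pax7. All 3 groups were apart, and Chaf1b was 1.69-fold higher with Pax3 (0.75 ± 0.056, limma adjusted p = 8.94e-07) and 1.90-fold higher with Pax7 (0.92 ± 0.056, limma adjusted p = 1.24e-07). Its difference between Pax7 and Pax3 arrays did not pass (limma adjusted p = 0.0634). Chaf1a, the large subunit of the same factor, was lower (-0.28 ± 0.039 and -0.27 ± 0.039), so the 2 subunits moved in opposite directions. Tipin read 9.50, 9.38 and 9.15 in control arrays, 8.94, 8.94 and 8.85 in Pax3 arrays and 8.78, 8.81 and 8.90 in Pax7 arrays. Tipin protects stalled forks together with Timeless, and its change was -0.43 ± 0.080 and -0.51 ± 0.080, with a wide spread in control. Slbp read 9.49, 9.39 and 9.31 in control arrays, 9.09, 9.05 and 8.89 in Pax3 arrays and 9.08, 9.14 and 9.08 in Pax7 arrays. Slbp binds the stem-loop of histone messages, and it differed from control by -0.39 ± 0.063 and -0.30 ± 0.063. Ung read 7.15, 7.28 and 7.23 in control arrays, 6.80, 6.84 and 6.95 in Pax3 arrays and 7.05, 6.94 and 7.03 in Pax7 arrays. Ung, which removes uracil from DNA, differed by -0.36 ± 0.055 and -0.21 ± 0.055, and for Tipin, Slbp and Ung the control arrays were above all other arrays. Dtl, the adaptor that marks Cdt1 for destruction, changed by -0.27 ± 0.049 and -0.31 ± 0.049. Uhrf1, which carries DNA methylation over to the new strand, did not pass (0.01 and -0.03).

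**Figure D3:**
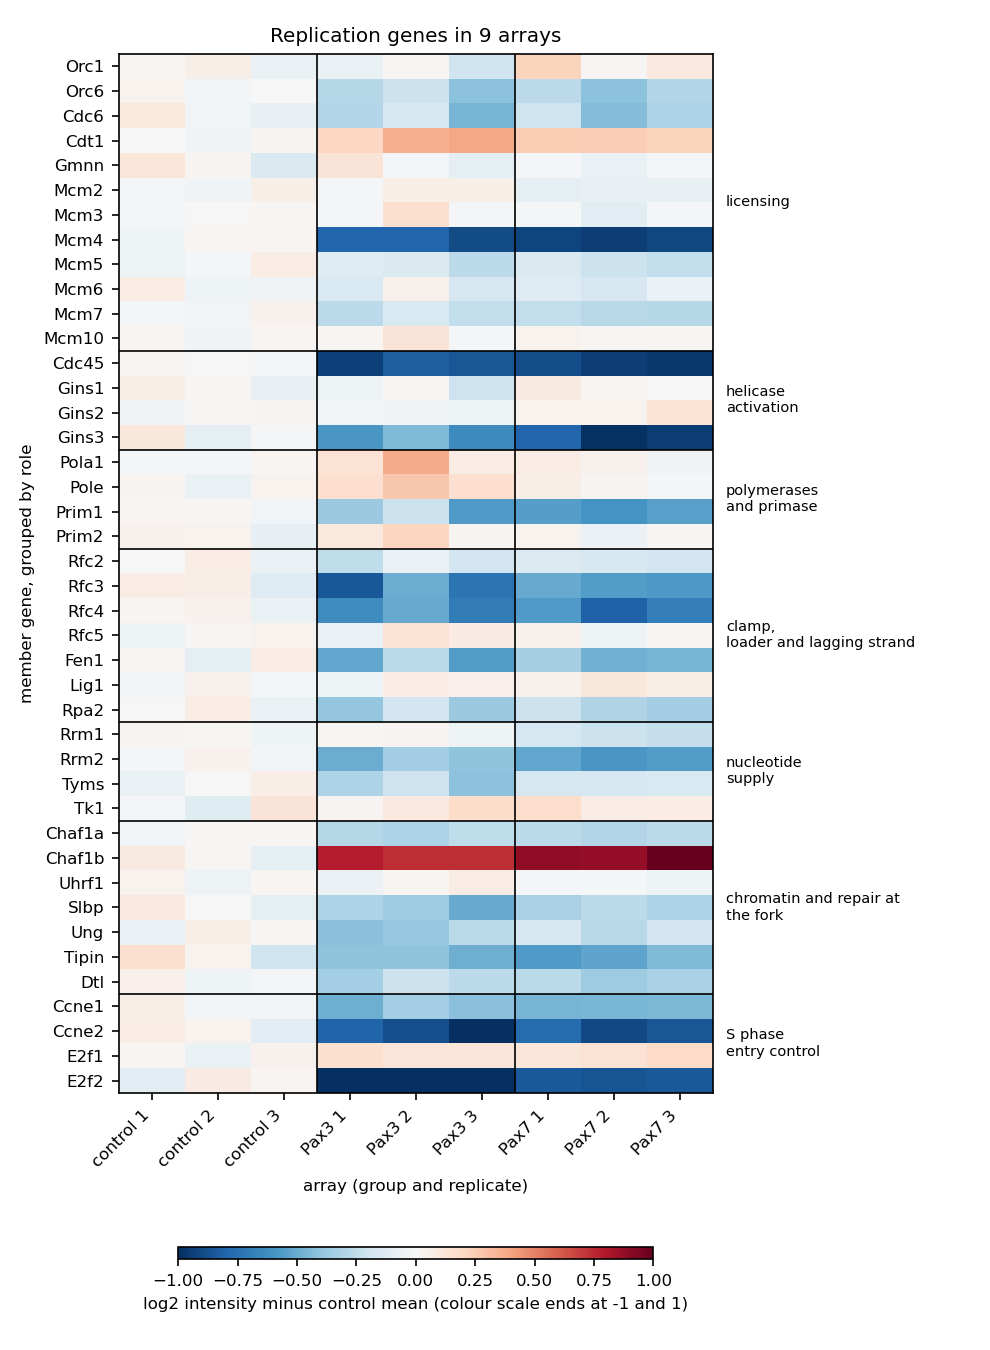
Log2 intensity of the 42 members in each of the 9 arrays after subtraction of the control mean, grouped by role, with blue for lower and red for higher values (the colour scale ends at -1 and 1). The Pax3 and Pax7 columns are blue in most rows, and the darkest rows are Mcm4, Cdc45, Gins3, Ccne2 and E2f2 (blue) and Chaf1b (red).

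Position in the genome separated some of the largest changes from the rest. Mcm4, Cdc45, Rfc4 and Chaf1b all lie on chromosome 16, and each was compared with its 30 nearest genes of at least median mean intensity in the RefSeq gene order (GRCm38.p6), a comparison chosen after the values were seen. The 30 neighbours of Mcm4 had a median log2 fold change of -0.63 with Pax3 and -0.69 with Pax7, and 24 and 23 of them fell. Around Cdc45 the medians were -0.73 and -0.64 (26 and 25 fell), and around Rfc4 -0.58 and -0.56 (25 and 25 fell). The neighbours of Chaf1b rose as it did, with medians of 0.54 and 0.55 and 27 of 30 rising in each comparison. Set against their neighbours, these 4 genes differed by -0.20 to 0.21 with Pax3 and by -0.30 to 0.38 with Pax7.

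The neighbours of the other 38 members stayed closer to 0, with medians of -0.16 to 0.11 for Pax3 and -0.19 to 0.11 for Pax7. The neighbour medians of E2f2, Ccne2 and Gins3 were -0.07, -0.09 and 0.04 with Pax3. Of these 38 members, 4 rose with Pax3 (10.5%, against 19.8% of all genes) and 2 with Pax7 (5.26% against 21.6%). Along chromosome 16 as a whole, the median over 327 genes of at least median intensity was -0.41 with Pax3 and -0.42 with Pax7, while the other autosomes and X had medians between -0.046 and 0.054 in the 2 comparisons. The part of this regional shift in the changes of Mcm4, Cdc45, Rfc4 and Chaf1b was not tested.

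**Figure D4:**
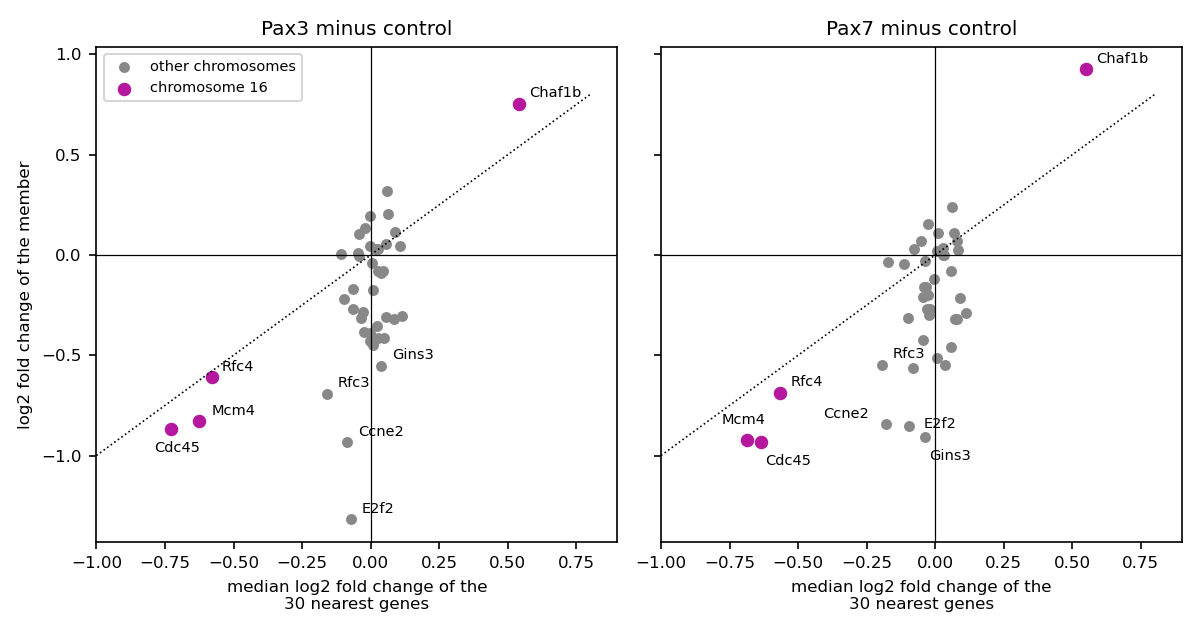
Log2 fold change of each member (vertical axis) against the median log2 fold change of its 30 nearest genes (horizontal axis), for Pax3 (left) and Pax7 (right), with the 4 chromosome 16 members in purple and a dotted line where both are equal. The purple points lie within -0.30 and 0.38 of the dotted line, and the grey points spread vertically at neighbour medians close to 0.

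**Figure D5:**
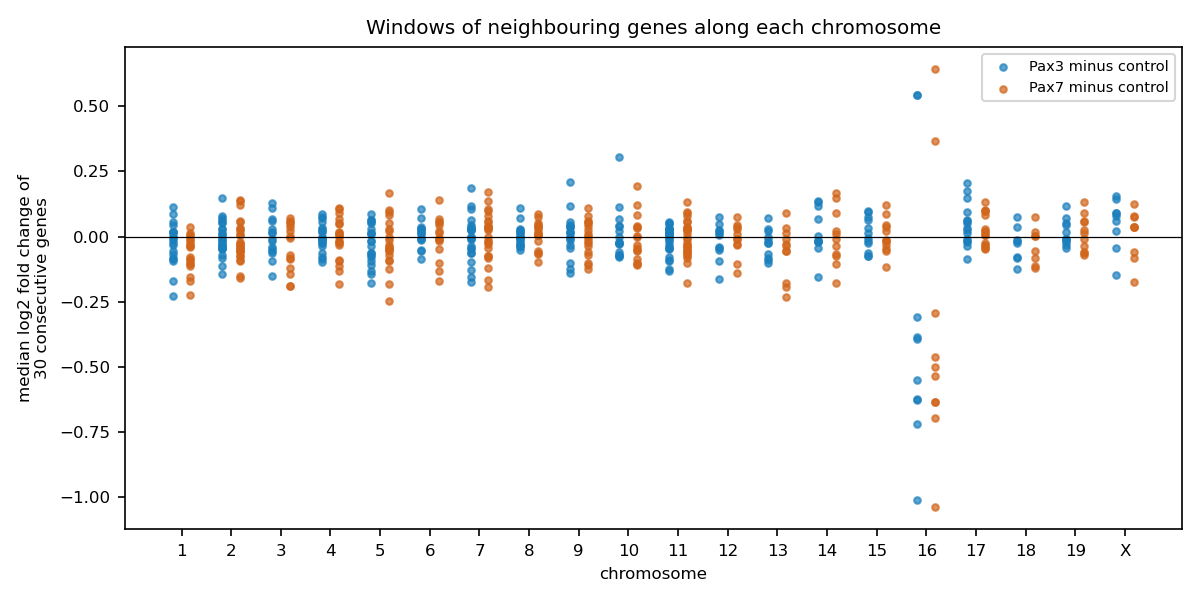
Median log2 fold change of each window of 30 consecutive genes, placed by chromosome, for Pax3 (blue) and Pax7 (orange) against control. The 307 windows off chromosome 16 lie between -0.25 and 0.30, whereas those on chromosome 16 reach -1.04 and 0.64.

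Few replication genes differed between Pax7 and Pax3 arrays. Of 42 members 3 were lower and 1 was higher in Pax7 than in Pax3 arrays (limma adjusted p under 0.05), against 8.54% lower and 8.33% higher over all genes, so the members' share was near or below that background. The 2 groups did not overlap for 10 members, against 29.4% of all genes. E2f2 was the higher one, by 0.47 ± 0.054 (SE, n = 3 per group, limma adjusted p = 0.000125). The lower ones were Gins3 at -0.36 ± 0.074 (limma adjusted p = 0.00665), Rrm1 at -0.20 ± 0.042 (0.00677) and Pole at -0.18 ± 0.048 (0.0284). The Pole call was lost without Pax3 replicate 2, Pax7 replicate 2 or Pax7 replicate 3 (adjusted p 0.0858 to 0.111) and with arrays centred on their median (0.0566). Without Pax3 replicate 3 the count of 4 became 8, with 6 lower, as Prim1, Pola1, Mcm4 and Ung came past the threshold. It was 7 after a second quantile normalization and 7 without the lowest 50% of genes, and 1 in the treat test at a fold change of 1.2.

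Other genes of the replication machinery, a further list of 62 of which 59 were measured, were split between directions. In Pax3 arrays 18 fell (30.5%, against 19.7% of all genes) and 16 rose (27.1% against 19.8%), with a median of -0.039. In Pax7 arrays 23 fell (39.0% against 21.5%) and 12 rose, with a median of -0.071, and the share that rose (20.3%) was near the 21.6% of all genes. Without the lowest 50% of genes, 3307 of 9831 genes fell with Pax3 and 3565 with Pax7, and the list's shares that fell were near that background. E2f8, a repressor of the E2F family, read 10.23, 10.27 and 10.22 in the control arrays, 8.93, 8.93 and 8.86 in those with Pax3 and 8.69, 8.70 and 8.54 in those with Pax7. The groups did not overlap, and its changes of -1.34 ± 0.050 and -1.60 ± 0.050 were the largest of the list. Dna2, a nuclease of Okazaki fragments (-0.81 and -0.60), and claspin Clspn, which carries the checkpoint signal at the fork (-0.75 and -0.82), fell as well. The helicase Recql4 rose by 0.94 and 0.77, Mcm8 by 0.83 and 0.45, and E2f5 by 0.36 and 0.77. Between the factors 10 were lower (16.9% against 8.54% of all genes) and 4 higher (6.78% against 8.33%) in Pax7 arrays. Without the lowest 50% of genes, 1704 of 9831 genes were lower, a share near that of the list. The largest differences were in E2f3 (0.43), E2f5 (0.41), the polymerase epsilon subunit Pole4 (-0.37) and Mcm8 (-0.37).

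Regulators of G1, the phase before replication, changed in both directions. Of 14 measured, 5 rose and 5 fell in Pax3 arrays (35.7% each, against 19.8% and 19.7% of all genes), and 6 rose and 6 fell in Pax7 arrays (42.9% each, against 21.6% and 21.5%). Without the lowest 50% of genes the background was closer to these shares, with 3222 of 9831 genes rising and 3307 falling with Pax3, and 3280 and 3565 with Pax7. Cyclins that start the path to S phase were higher, with Ccnd2 at 0.89 and 0.85 and Ccnd1 at 0.32 and 0.34, and so was their kinase Cdk6 (0.84 and 0.86), whereas Ccnd3 was lower (-0.17 and -0.36). Among inhibitors, Cdkn2a rose by 1.42 and 1.58 and Cdkn2b by 0.89 and 0.95. Cdkn1c (-1.15 and -1.16), Cdkn2c (-0.67 and -1.03) and Cdkn1b (-0.31 and -0.37) fell. Rb1, which holds E2F factors in check, fell by 0.22 and 0.58. In Pax7 arrays Rbl1 (-0.37) and Cdkn2d (0.21) passed as well, and in Pax3 arrays they stood at -0.08 and 0.11. Between Pax7 and Pax3 arrays Cdkn2c (-0.36), Rb1 (-0.36), Rbl1 (-0.28) and Ccnd3 (-0.18) were lower and Cdkn2a (0.16) was higher with Pax7.

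Of 24 measured G2 and mitosis genes 4 rose and 4 fell in Pax3 arrays, and these shares of 16.7% each were near the 19.8% and 19.7% of all genes. In Pax7 arrays 2 rose (8.33% against 21.6%) and 8 fell (33.3% against 21.5%). The share that fell with Pax7 was near that found without the lowest 50% of genes, where 3565 of 9831 genes fell. The medians of the G2 and mitosis genes were 0.019 and -0.094. Cdc25b, a phosphatase that starts mitosis, rose by 0.81 and 0.75, and Mki67, a marker of dividing cells, fell by 0.33 and 0.45. A list of 30 histone genes was chosen by the start of their symbols only, so it may hold genes that are not made in S phase. Near-identical copies among them can share signal. Of these 30 histone genes, 13 fell in Pax3 arrays (43.3% against 19.7% of all genes). In Pax7 arrays 19 fell (63.3% against 21.5%) and 1 rose (3.33% against 21.6%). With the lowest 50% of genes left out, 3307 of 9831 genes fell with Pax3 and 3565 with Pax7, closer to the shares of the histone genes. Their medians were -0.14 and -0.26, and 6 of them (20.0% against 8.54%) were lower in Pax7 than in Pax3 arrays.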

How the data were processed

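RNA was measured on 9 one-colour Affymetrix arrays, 3 per group. The authors deposited log2 intensities per probe set, and the submitters' processing notes name RMA, a method that corrects background, normalizes by quantiles and summarises probes, and R 2.10.0. The build and the annotation version were not given in the sources used here. All 9 columns were used. Of 25668 probe sets, 20777 carried 1 gene symbol, 232 several and 4659 none in the platform annotation.

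Group means were estimated from the 9 arrays together by limma 3.58.1 in R 4.3.3, with a residual df of 6 and a prior df of 4.37. Calls had a Benjamini-Hochberg adjusted p under 0.05 over 19661 genes. Errors of fold changes are moderated standard errors. The fit was tested on simulated data. Gene IDs of 19584 genes matched RefSeq's table, used for neighbours only. Array medians were 6.40 to 6.48, and the number of arrays limited precision. The members, lists and tests were chosen with earlier results of these data known. Values in every array are given for the 16 members with the largest change in any comparison, and up to 4 called genes per comparison are named from the further replication list, up to 2 from the G2 list and the called G1 regulators. Values of Rrm1 in every array were added after they were seen. Alternatives covered probe sets, a filter on dim genes, centring, quantile normalization, the variance model, the arrays fitted, a replicate block, a fold threshold and leaving out each array.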

Additional observations from a re-analysis of the deposited data

How the results depend on the processing

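No member value that passed turned its direction under any alternative run. The count of members past the threshold, 28 for Pax3 against control, 27 for Pax7 against control and 4 for Pax7 against Pax3, was 10, 12 and 1 in the treat test at a fold change of 1.2. For Pax7 against Pax3 it was 7 without the lowest 50% of genes and 7 after a second quantile normalization. Leaving out 1 array gave 24 to 28, 24 to 27 and 3 to 8 members. Over 126 member values, 9 calls were lost and 10 were gained in at least 1 of these 9 fits. With the replicate block the counts were 28, 26 and 4, Tyms with Pax7 being the call lost. Whether the replicate numbers pair the arrays was not settled. Same-numbered arrays of different groups had correlations of -0.026 to 0.22 in their deviations from the group means, with 3 of 9 pairs over 0.1. Of the 9 arrays, 4 correlated best with their own number. Centring the arrays on their median gave 26, 26 and 3, and a trend with a robust prior 28, 27 and 6. Fitting only the 6 arrays compared gave 25, 27 and 4, and testing all probe sets with 1 symbol 28, 27 and 4. Over all genes the treat test called 3264, 3819 and 784 against 7780, 8485 and 3316 in the moderated test. Each member had 1 probe set with a single symbol, so averaging probe sets could not change a value. Leaving out the chromosome 16 members, an alternative chosen after seeing the data, gave 24, 23 and 4 of 38.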

Other observations

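The shift of chromosome 16 reached beyond the replication genes and changed sign along the chromosome. Genes of at least median mean intensity were taken in RefSeq order in windows of 30, which gave 10 windows on chromosome 16 and 307 elsewhere. The 307 windows had medians of -0.23 to 0.30 with Pax3 and -0.25 to 0.19 with Pax7. On chromosome 16 the first 8 windows, from Zfp263 to Tfg, had medians of -1.01 to -0.31 with Pax3 and -1.04 to -0.29 with Pax7. The lowest of them ran from Tmem186 to Nde1, where 28 of 30 genes fell with Pax3 and 27 with Pax7. The window after these 8, from Tomm70a to App, turned to 0.54 and 0.37, and the one from Adamts1 to Atp5o stood at 0.54 and 0.64, with 28 and 27 of 30 genes rising. Between Pax7 and Pax3 arrays the medians of the 10 windows stayed within 0.064 of 0. The replication gene Donson, which lies on this chromosome, rose by 0.35 with Pax3 and 0.41 with Pax7 (limma adjusted p = 0.000911 and 0.000218). What underlies the regional shift was not tested.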
